A study of Mus musculus with 5 samples.

Results

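Antiviral effector genes that cells switch on in response to interferon were followed in the CD45- fraction of B16-OVA tumors, which grow from mouse melanoma cells made to express ovalbumin. The set holds 10 genes, Mx2, Oas2, Oas3, Oasl1, Ifit1, Ifit2, Ifit3, Usp18, Herc6 and Cmpk2, out of 750 endogenous probes on the nCounter immune panel. They were picked by name as effectors and as parts of the ISG15 system. Several of them had first drawn attention because they differed between these same samples, so their difference between the groups is described below and not tested. All 10 lay above background in each of the 5 samples, and the lowest count of any of them was 2.09 times the background level.

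Tumors were grown in C57BL/6 mice. The 3 control samples (WT) came from FoxP3YFP-Cre mice and the 2 KO samples from Prdm1fl/flFoxP3YFP-Cre mice, so both groups carried the Cre. Every mouse received B16-OVA cells under the skin at day 0. NP-OVA was injected into the peritoneum, first with CFA on the day of inoculation and again with IFA on day 7, and tumors measured at most 1.5 cm3. Cre is driven from the Foxp3 locus, so Prdm1, which encodes Blimp1, is deleted in regulatory T (Treg) cells. Treg cells carry CD45 and fall outside the gate, so the deletion is directed at cells other than those measured. Whether any measured cells carried it was not examined here. Mice were in general 5 to 10 weeks old. The study counts the groups in mice, while the labels do not tie a sample to an animal, so the SE and p-values measure only the spread between these samples.

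Type I interferons bind the receptor built from IFNAR1 and IFNAR2, and the kinases JAK1 and TYK2 then set off assembly of the transcription factor complex ISGF3. It binds interferon-stimulated response elements in promoters and turns on a broad set of genes. The effectors among them block viruses at separate steps: Mx proteins trap viral components, OAS enzymes sense double-stranded RNA, IFIT proteins hold back translation of foreign RNA, and ISG15 is attached to proteins as a small tag. Tumor cells and the stromal cells around them can run the same program.

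Promoters were examined first. The choice of genes did not use promoter sequence, but it took genes known to be induced by interferon, which acts through this element. Its presence among them is therefore described and not tested. RefSeq promoter windows (GRCm38.p6), from 250 bases before to 50 bases after an annotated start, were matched for 7 of the 10 genes. The core of the element was searched as GAAANNGAAA on both strands, and overlapping matches were each counted. It was present in 3 of these 7 genes, Oas3, Ifit1 and Ifit3, in 50 of 549 genes of the panel with a window (9.11%) and in 3.99% of all 27025 genes of the table. Of 13 other interferon-stimulated genes of the panel with a window, 7 held it. No match was found in the windows of Oasl1, Ifit2, Herc6 and Cmpk2. The stretches that carry the matches are shown 5′ to 3′ on the gene's own strand, with the matches in capitals. Isg15 is added because Usp18 and Herc6 act on its product.

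Oas3, chr5:120777700-120777759, minus strand: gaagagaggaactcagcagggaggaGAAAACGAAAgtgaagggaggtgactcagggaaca
Ifit1, chr19:34640760-34640838, plus strand: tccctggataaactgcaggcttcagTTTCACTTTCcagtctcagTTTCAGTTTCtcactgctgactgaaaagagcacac
Ifit3, chr19:34583348-34583441, plus strand: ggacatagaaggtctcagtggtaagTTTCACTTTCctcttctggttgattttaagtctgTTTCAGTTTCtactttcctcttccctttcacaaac
Isg15, chr4:156200850-156200921, minus strand: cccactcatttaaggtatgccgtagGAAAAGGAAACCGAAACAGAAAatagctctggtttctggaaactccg

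Ifit1 and Ifit3 carried the same pair of matches, TTTCACTTTC followed by TTTCAGTTTC, both in the reverse orientation. In Oas3 a single match began 75 bases before the start, and in Isg15 there were 3 overlapping ones. A copy of Ifit3, named Ifit3b, lies in the same cluster on chromosome 19. The printed stretch of Ifit3 recurs in Ifit3b without a change, and 258 of 260 aligned bases of their windows were identical. Ifit3b has no probe of its own on the panel. Whether the Ifit3 probe also counts Ifit3b transcripts is not given in the sources used here, so Ifit3 values may hold both.

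Values below are raw counts divided by each sample's relative level of 20 housekeeping probes, called scaled counts, and the fold change is KO over WT from edgeR's quasi-likelihood fit. The housekeeping factors were 0.935 to 0.971 in WT and 1.01 to 1.14 in KO. Endogenous probes summed to between 369515 and 461822 counts per sample. After removal of probes that did not exceed background in at least 2 samples, 401 of 750 remained. The gate was checked on Ptprc, which encodes CD45 and had at most 4 counts in any sample. Prdm1 had 3 to 10 counts and Foxp3 1 to 5, all below background, so neither gene checks the genotype. Mcam, a melanoma adhesion molecule, had 1668 to 1916 scaled counts in WT and 2607 and 2684 in KO, and S100b had at least 1724 in each sample. These are 2 of only 3 melanoma markers, out of 8 listed, that the panel carries. The remaining one, Cspg4, was faint, with 14 to 31 raw counts, and was below background in KO 2.

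All 10 effector genes had a lower fitted value in KO than in WT. The median of their log2 fold changes was −0.98, against −0.07 over all tested probes, of which 60.6% were lower. The fold ranged from 1.38 for Cmpk2 to 3.83 for Mx2. In 8 of the 10, all but Ifit2 and Cmpk2, it was at least 1.5-fold, as in 9.48% of all tested probes. In 4 of the 10, Mx2, Oas2, Ifit1 and Ifit2, both KO samples lay below every WT sample, which was so for 14.7% of tested probes, and in none were both above (8.98% of tested probes). The contrast that drew attention to these genes is the one counted here, and nothing is read from these shares. No probe of the 401 passed an adjusted p of 0.05 with edgeR (0%) or limma, while 25 (6.23%) had an unadjusted p under 0.05 with edgeR, and DESeq2 called 3 (0.748%), none of them an effector gene.

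**Figure D1:**
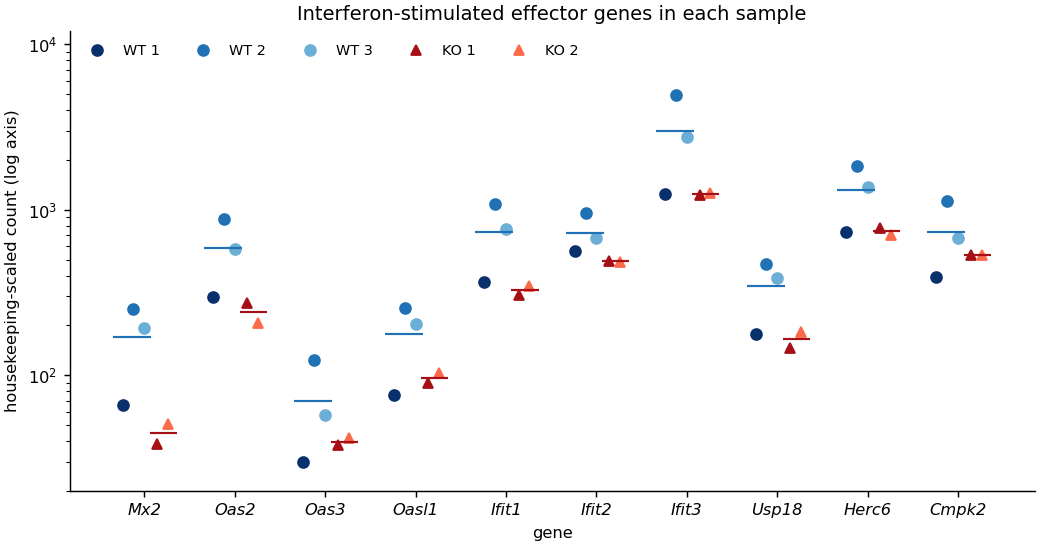
Scaled counts (log axis) of the 10 effector genes. Circles are WT samples and triangles KO samples, with horizontal lines at the group means. WT 2 is the highest point for every gene and WT 3 the next, while WT 1 is above both KO samples for 4 genes.

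The samples had a common order. WT 2 was the highest of the 5 and WT 3 the next for all 10 genes, an order found in 16% of tested probes (WT 2 was highest in 33.2%). WT 1 was above both KO samples for 4 genes, between them for 3 (Ifit3, Usp18 and Herc6) and below both for 3 (Oas3, Oasl1 and Cmpk2), so it was not above both KO samples for 6 of the 10, against 69.6% of tested probes. WT 2 exceeded WT 1 by 1.70- to 4.11-fold, and by at least 1.5-fold for all 10 genes against 25.9% of tested probes. The median was 2.95, whereas the mean of the KO samples differed from WT 1 by a median ratio of 0.967. On the log2 scale, relative to each gene's own mean, the effector genes averaged −0.51 in WT 1, 1.07 in WT 2, 0.50 in WT 3, −0.57 in KO 1 and −0.49 in KO 2. The genes were chosen with earlier results of these same samples known, so the shares given with the sample order are also description only.

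**Figure D2:**
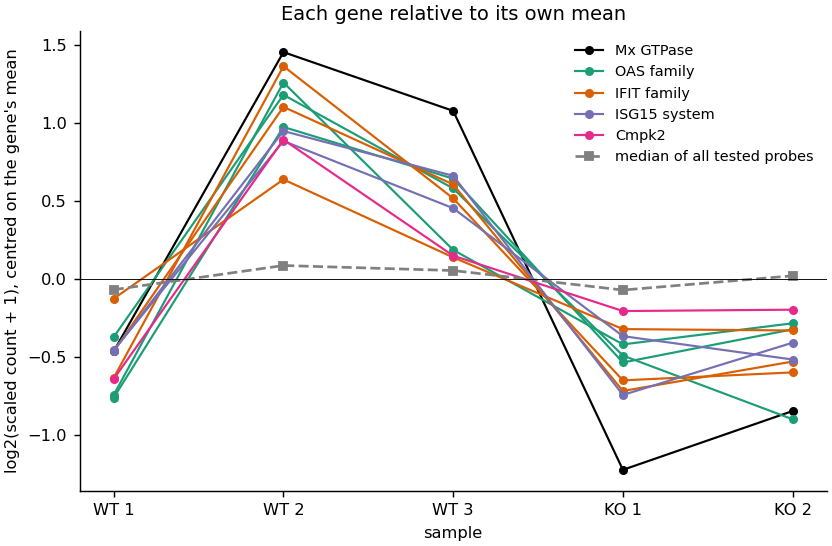
log2(scaled count + 1) of each effector gene relative to its own mean over the 5 samples, colored by family, with the median of all 401 tested probes as a dashed line. The 10 lines are highest in WT 2 (mean 1.07), and their means are −0.51 in WT 1, −0.57 in KO 1 and −0.49 in KO 2, while the dashed line stays within 0.09 of zero.

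Mx2, a dynamin-like GTPase, had the widest range. Laboratory mouse strains commonly carry a disrupted Mx2 coding sequence, and the probe counts the transcript only. It had 65.9, 252 and 194 scaled counts in WT 1, 2 and 3, and 38.5 and 50.3 in KO 1 and 2. Both KO samples were lowest and WT 1 stood next to them, well apart from WT 2 and WT 3. The log2 fold change was −1.94 (SE 0.62). These are small numbers: the 64 raw counts of WT 1 have an exact 95% Poisson interval of 49.3 to 81.7, and the 51 of KO 2 one of 38.0 to 67.1, for counting error alone. These intervals overlap.

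The 3 OAS family genes had lower fitted values in KO, but only Oas2 had groups that did not overlap. OAS2 and OAS3 make short oligoadenylates that activate RNase L when they meet double-stranded RNA, and their genes are neighbors on chromosome 5. Oas2 had 298, 875 and 577 scaled counts in the WT samples, and the KO samples had 274 and 206, with a log2 fold change of −1.28 (SE 0.48). WT 1 lay just above KO 1. Oas3 had 29.9, 123 and 57.8 in the WT samples, and the KO samples had 37.6 and 41.4, and its lowest sample was WT 1. Its log2 fold change of −0.82 (SE 0.62) was −0.15 without WT 2. Its counts were low, with 29 raw counts in WT 1 and 115 in WT 2. Oasl1, a family member without synthetase activity that in mice holds back translation of Irf7, had 76.2, 256 and 203 in the WT samples, and the KO samples had 89.3 and 104. WT 1 was again below both KO samples, and the log2 fold change was −0.89 (SE 0.53).

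Ifit1, Ifit2 and Ifit3 encode tetratricopeptide proteins that bind foreign RNA or the translation machinery, and they sit in a cluster on chromosome 19. Ifit1 had 365, 1081 and 766 scaled counts in the WT samples, and the KO samples had 305 and 348. The fold change was −1.17 in log2 (SE 0.47). The groups did not overlap, but only the step from 365 in WT 1 to 348 in KO 2 kept them apart. Ifit3 had 1238, 4942 and 2747 in the WT samples, and the KO samples had 1223 and 1268. WT 1 lay between the KO samples, and the log2 fold change of −1.26 (SE 0.58) was −0.68 without WT 2.

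Ifit2 had the smallest fold change of the family. It had 559, 950.2 and 672 scaled counts in the WT samples, and the KO samples had 488 and 485, and its log2 fold change was −0.58 (SE 0.25). The KO samples were nearly equal, and WT 2 exceeded WT 1 by 1.70-fold, against 2.97-fold for Ifit1 and 3.99-fold for Ifit3. Ifit2 and Ifit3 are neighbors on the chromosome, yet their ranges from lowest to highest sample were 1.96-fold and 4.04-fold.

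Both genes of the ISG15 system followed the same order of WT samples. Usp18, a protease that removes ISG15 from proteins and also blocks signaling at IFNAR2, had 177, 471 and 386 scaled counts in the WT samples, and the KO samples had 145 and 183. Its log2 fold change was −1.07 (SE 0.45), with WT 1 between the KO samples. Herc6, the main ligase that attaches ISG15 in mice, had 730.1, 1850.4 and 1373 in the WT samples, and the KO samples had 777 and 700.3. The fold change was −0.83 in log2 (SE 0.40). The groups overlapped for both genes through WT 1 alone. Isg15 itself had 1345, 3565 and 2927 in the WT samples, and the KO samples had 1352 and 1681, with WT 1 lowest by a small margin and a log2 fold change of −0.78 (SE 0.43).

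Cmpk2, a mitochondrial nucleotide kinase, had the smallest fold change of the 10. It had 391, 1135 and 677 scaled counts in the WT samples, and the KO samples had 529 and 533, so that both KO samples exceeded WT 1 by at least 1.35-fold. Its log2 fold change of −0.47 (SE 0.45) was −0.01 without WT 2. Rsad2, the antiviral enzyme viperin, is its neighbor on chromosome 12 and had a like order, with 293, 995 and 814 in the WT samples, and the KO samples had 404 and 598. For both genes WT 1 was the lowest of the 5 samples.

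**Figure D3:**
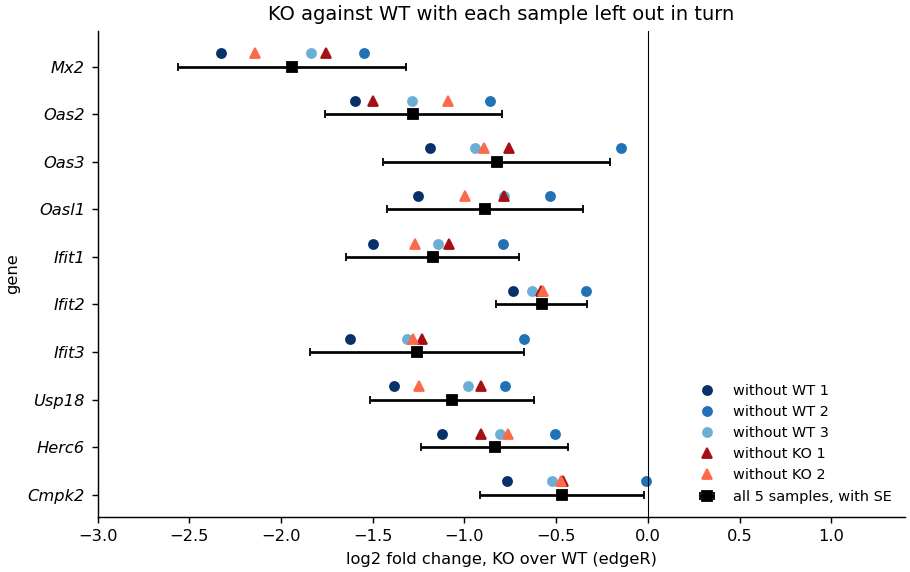
log2 fold change of KO over WT for each effector gene. Black squares are the fit of all 5 samples with its SE, and colored points are the fits with 1 sample left out. Every point lies below zero, and the fits without WT 2 come closest to it (−0.01 for Cmpk2 and −0.15 for Oas3).

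Left-out samples moved sizes more than directions. All 10 genes kept a lower fitted value in KO in each of the 5 fits with 1 sample removed. For Cmpk2 without WT 2 the log2 fold change was only −0.01, so its groups were then level. The median log2 fold change was −1.32 without WT 1 and −0.61 without WT 2. Without WT 1, both KO samples were below the other WT samples for all 10 genes. When samples were scaled by the spiked-in positive controls only, the median was −0.83 and the median of all tested probes was 0.07, a gap between them of −0.90. The same gap was −0.91 with the housekeeping scaling.

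Upstream, the receptor and its kinases were close to level. Ifnar1 had 856 to 997 scaled counts in WT and 887 and 966 in KO, and Jak1 had 855 to 964 and 925 and 985. From lowest to highest sample Ifnar1, Ifnar2, Jak1 and Tyk2 differed by 1.16-, 1.34-, 1.15- and 1.32-fold. Ifnar2 had 409, 466 and 492 in the WT samples, and the KO samples had 404 and 368. Both KO samples thus lay below every WT sample, as in 14.7% of tested probes, while the groups overlapped for Ifnar1, Jak1 and Tyk2. Stat2, which encodes a subunit of ISGF3 and is itself induced by interferon, varied more. It had 331, 939 and 516 in the WT samples, and the KO samples had 317 and 276, a range of 3.40-fold. The median range of the effector genes was 3.45-fold, and that of all tested probes 1.62-fold.

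Transcripts of the interferons were not detectable at this depth in most cases. Of 6 interferon probes, Ifna2, Ifnb1, Ifng and Ifnl2 did not exceed background in any sample. Ifna1 reached at most 17 raw counts and Ifna4 at most 18, close to the background of 13.1 to 17.7 counts. In bulk RNA, fewer cells with the program and less RNA per cell cannot be told apart.

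Genes that sense foreign nucleic acid or relay the signal varied to different extents. Among 13 tested, 11 had lower and 2 higher values in KO (median log2 fold change −0.32, and −0.12 without WT 2), 7 showed the order WT 2, then WT 3, then the rest, and 0 passed. Irf7, the factor that amplifies interferon production, had 142, 501 and 315 scaled counts in the WT samples, and the KO samples had 126 and 149. Ddx58, which encodes the RNA sensor RIG-I, had 1373, 2412 and 1813 in the WT samples, and the KO samples had 1292 and 1374. Ifih1, which encodes the RNA sensor MDA5, had 496, 1159 and 973 in the WT samples, and the KO samples had 600.3 and 572. Irf3, the constitutive counterpart of Irf7, did not have this order: it had 465, 482 and 519 in WT and 420.04 and 361 in KO. Mavs, the adaptor of both RNA sensors, ranged only from 349.9 to 442 over all samples.

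**Figure D4:**
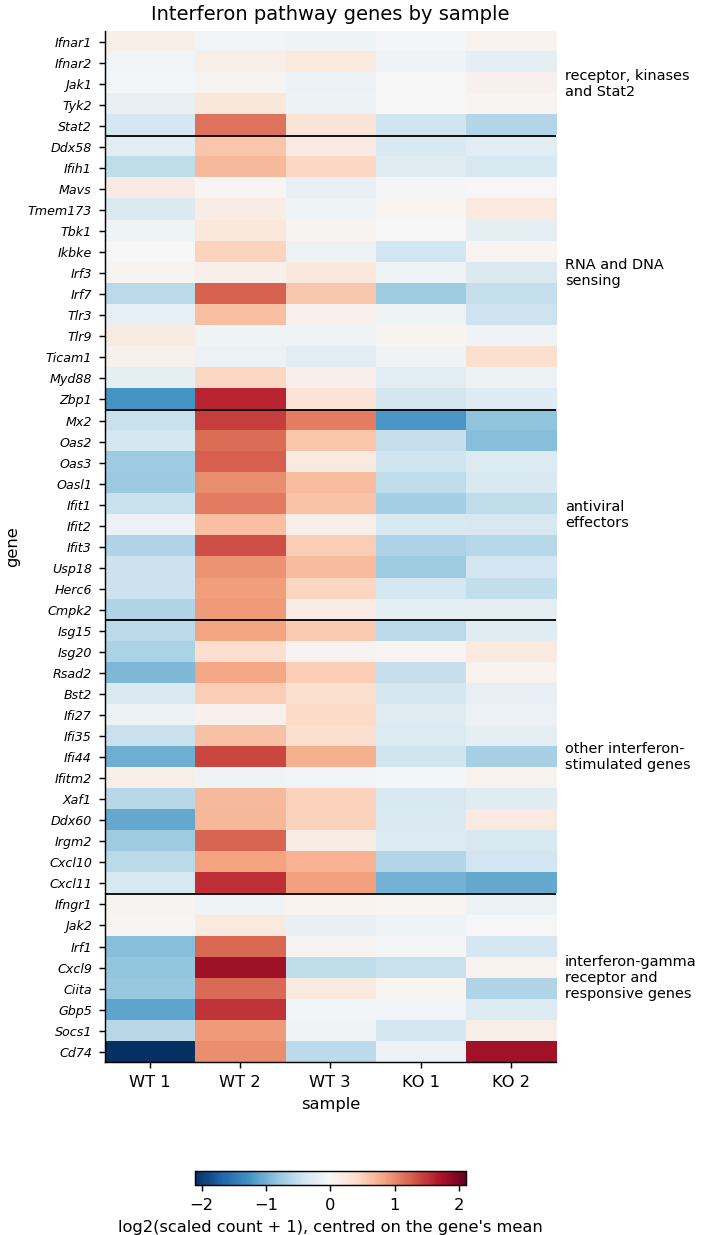
log2(scaled count + 1) relative to each gene's mean, for tested genes of 5 interferon gene lists, with samples in columns and genes in rows grouped by role. Red is above and blue below the gene's mean. The receptor and kinase rows are near white, whereas the effector rows are red in WT 2 and WT 3 and blue elsewhere. Some effector cells are pale too, with deviations as small as 0.14 in WT 3 and −0.13 in WT 1.

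Other interferon-stimulated genes of the panel mostly shared the order. Of 17 on the panel 14 were tested, 12 with lower and 2 with higher values in KO (median log2 fold change −0.54, −0.29 without WT 2 and −0.87 without WT 1), 11 had WT 2 and WT 3 on top, and 0 passed. Bst2, the tether that holds budding virus on the cell surface, had 3565, 6351 and 5559 scaled counts in the WT samples, and the KO samples had 3402 and 3893. Ifi27, Ifitm2 and Isg20 did not have the order. For Isg20, KO 2 lay between WT 2 and WT 3, and the log2 fold change was 0.15 (SE 0.31). Ifitm2, which restricts virus entry, had 4352 to 5085 in WT and 4533 and 4899 in KO, a range of 1.17-fold.

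Likeness to the effector genes was measured as the root-mean-square distance, in log2 units over the 5 samples, between a gene's centered profile and the mean centered profile of the 10. Among 391 other tested probes the 8 nearest included Irf7 (0.117), Cxcl10 (0.150), Stat2 (0.151), Isg15 (0.155), Xaf1 (0.229), Ifih1 (0.233) and Fcgr4 (0.249), against a median of 0.661. The effector genes themselves lay between 0.0876 for Ifit1 and 0.455 for Mx2, which was farther off than each of those genes. Fcgr4, an Fc receptor of myeloid cells, was faint, with 18.5, 60.8 and 40.7 scaled counts in the WT samples, and the KO samples had 28.9 and 24.7.

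Genes tied to interferon-gamma were set beside the effector genes. Their median ratio of WT 2 over WT 3 was 2.13 over 8 tested genes, against 1.41 for the effector genes and 1.05 for all tested probes. Irf1, a transcription factor induced early by interferon-gamma, had 564, 2433 and 1092 in the WT samples, and the KO samples had 1027 and 823, so both KO samples were above WT 1. Cxcl9 and Gbp5, named after their values were seen, had WT 2 over WT 3 ratios of 5.03 and 3.00. Cd74, the invariant chain of MHC class II, had 417, 3572 and 1233 in the WT samples, and the KO samples had 1673 and 6156, with KO 2 highest. The receptor gene Ifngr1 was level, with a range of 1.14-fold. Of the 8 genes, 7 had lower and 1 higher values in KO, and 0 passed. Their median log2 fold change was −0.44, but 0.19 without WT 2, so its direction rested on that sample, and −0.77 without WT 1. These differences between gene lists were not tested.

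Markers of other cells were set beside these values. Of 25 leukocyte markers 24 were on the panel, 16 exceeded background in no sample, and 1, Cd68, exceeded it in all. Their summed scaled counts were 307, 427 and 269 in WT 1, 2 and 3 and 409.5 and 431 in KO 1 and 2, and Cd68 alone had 141, 210.1 and 128 in the former and 243 and 246 in the latter. WT 2, the highest sample for the effector genes, was close to the KO samples in this sum, and WT 3 was lowest. The sum rests largely on Cd68, with most other probes at background level, so it does not measure leukocyte content as a whole. Of the 4 tested markers, Cd68 was highest in KO 2. The faint Cd3d, Fcgr1 and Lyz2 were highest in WT 2, with 22.4, 21.3 and 46.9 scaled counts. Of plasmacytoid dendritic cell markers, 4 of 8 were on the panel. Bst2 is itself induced by interferon, Irf8 and Tlr7 were below background in each sample, and Tlr9 had at most 15 raw counts. Summed fibroblast markers had 1011, 1598 and 562 scaled counts in WT 1, 2 and 3 and 1446.5 and 1389.8 in KO 1 and 2, with WT 2 highest and WT 3 lowest. Most of this sum was Fn1, with 871, 1358 and 454 in WT 1, 2 and 3 and 1274 and 1294 in KO 1 and 2. The fainter markers differed: Pdgfrb and Thy1 were also lowest in WT 3, but Col1a1 and Col3a1 were lowest in KO 2. These collagen genes had 58.7 and 100 scaled counts in WT 2 and 5.92 and 7.89 in KO 2, where both were below background. Summed endothelial markers had 1318, 1615 and 1375 in WT and 1222 and 1198 in KO, again with WT 2 highest. Nearly all of this sum was Eng and Icam2, and 4 of the 7 probes exceeded background in no sample. Eng and Icam2 were highest in WT 2, whereas Vwf was highest in WT 3, with 35.3 scaled counts against 20.3 in WT 2. The part of admixed cells in the spread of the effector genes was not tested.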

How the data were processed

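RNA (100 ng per sample) was hybridized to the nCounter Mouse PanCancer Immune Profiling panel. The authors deposited raw barcode counts of 784 probes: 750 endogenous, 20 housekeeping, 8 negative and 6 positive controls. The authors also deposited a signal table, normalized in nSolver, in which each sample's counts were multiplied by 1 factor and values under 15 were set to 15. It was used only as an alternative.

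Each sample's counts were divided by its geometric mean over housekeeping probes, relative to the average of the samples. Background was the mean plus 2 SD of the negative controls, and probes above it in at least 2 samples were tested. KO and WT were compared with edgeR 4.0.16 (quasi-likelihood test, Benjamini-Hochberg adjustment over 401 probes, threshold 0.05), with DESeq2 1.42.0 and limma 3.58.1 in R 4.3.3 as alternatives, and the edgeR step was tested on simulated counts. A pseudocount of 1 was used for log2 profiles. Of 770 gene probes, 746 matched RefSeq by accession. Poisson intervals cover counting error only.

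The members and gene lists were chosen with earlier results of these data known. Named genes were the 10 members, the 8 probes nearest to their profile, at most 4 per list by mean raw count, and genes that share a locus with a member. Ifnar2, Tyk2, Mavs, Ifna2, Ifnb1, Cxcl9, Gbp5, Isg20 and Thy1 fall outside that rule and were named after their values were seen. A gene that the rule takes in is not reported here. A list of 9 negative regulators of interferon signaling had 4 tested genes, 3 lower and 1 higher in KO, and 0 passed. Their median log2 fold change was −0.32, but 0.07 without WT 2 and −0.61 without KO 2. The ISG15 system list had 3 tested genes, all lower, with a median of −0.83, or −0.51 without WT 2, and 0 passed. Usp18 is in both lists and Herc6 in the ISG15 list, so neither list is separate from the effector genes. Isg15 is the only other tested gene of the ISG15 list.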

Additional observations from a re-analysis of the deposited data

How the results depend on the processing

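All 10 effector genes kept a lower fitted value in KO under all 16 alternatives, although Cmpk2 without WT 2 was level at −0.01. Their median log2 fold change, −0.98, ranged from −1.32 (without WT 1) to −0.61 (without WT 2) with 1 sample left out, and from −0.98 to −0.75 otherwise. Genes with both KO samples below every WT sample numbered 4, and 4 to 10 with 1 sample left out (10 without WT 1). With positive-control scaling there were 3, as Oas2 overlapped, and with TMM or DESeq2 factors 6, with Ifit3 and Usp18 added. No probe passed the adjusted threshold except 3 with DESeq2. The 25 probes at an unadjusted p under 0.05 became 39 with no filter and 10 (without KO 2) to 50 (without WT 1) with 1 sample left out. With positive-control scaling they split into 24 higher and 4 lower in KO, against 11 and 14. The cause of these shifts was not tested.

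With the replicate number as a block, 16 probes had an unadjusted p under 0.05 and the median of the effector genes was −0.75. Deviations of same-numbered samples correlated at 0.29 and 0.00025. With only 2 pairs, and numbers the labels do not explain, this does not settle whether the numbers pair the samples. Housekeeping scaling without G6pdx, chosen after seeing the data, gave −0.95. The background-subtracted values were not tested for calls. Low counts limit Oas3 and Mx2, with 29 and 64 raw counts in WT 1.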
